A study of Rattus norvegicus with 25 samples.

Results

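The genes described here are Cartpt and 9 other genes that encode neuropeptide precursors or granins, namely Npy, Cck, Tac1, Vgf, Scg2, Adcyap1, Nts, Grp and Gal. They were taken by name from the 26312 gene identifiers measured in the basolateral amygdala (BLA) and the dentate gyrus (DG) of stressed and unstressed rats, and each of the 10 matched a single identifier. Cartpt was chosen for its pattern over the DG libraries, so its DG levels are given as a description with no test. The question was whether the other peptide genes followed Cartpt across groups and across libraries.

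Neuropeptides are made as long precursors that enter the secretory pathway, are cut by prohormone convertases at pairs of basic residues and are stored in dense-core granules until a neuron fires strongly. They act on G protein-coupled receptors, over longer distances and times than fast transmitters do. Cartpt encodes the precursor of the CART peptides, which are known from feeding, reward and stress circuits. Npy and Gal encode neuropeptide Y and galanin, Cck and Grp the peptides cholecystokinin and gastrin-releasing peptide, Tac1 the tachykinins substance P and neurokinin A, Nts neurotensin and Adcyap1 the peptide PACAP. Vgf and Scg2 belong to the granin family, which takes part in forming dense-core granules and is itself cut into peptides.

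The animals were adult male wild-type Sprague-Dawley rats. Stress-exposed rats were immobilized once for 3 h in the presence of fox urine scent, and controls stayed in the home cage apart from a change of cage. Tail blood was drawn from the exposed rats during stress, and for 2 nights afterwards they were kept away from the controls' room. Stress, blood sampling and this separate housing thus cannot be told apart. Stress-exposed rats with the lowest composite scores of anxiety-like behavior (0 to 2) formed the stress-low group and those with the highest (13 to 15) the stress-high group, so both are extremes of 1 stressed population, while controls scored 0 to 6. Tissue was taken 9 days after stress as punches of the left BLA and left dorsal DG, which gave 13 BLA libraries (7 control, 3 stress-low, 3 stress-high) and 12 DG libraries (6, 3 and 3), each from 1 animal. Both regions came from 11 animals, and the stress-low group held animal 33 in the DG where it held animal 30 in the BLA.

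Library totals were 12709493 to 22801247 expected counts in the BLA and 11656439 to 19477932 in the DG. In each region 1 control library stood apart on the first principal component (PC1) and was left out of the fits, as the study had done with 1 control per region. In the BLA this was animal 2, at 46.4 where the others lay between -17.3 and 12.5, and in the DG animal 35, at 56.0 where the others lay between -13.7 and 2.28. Values with every library are given where they differ. The granule cell marker Prox1 was at 63.0 to 95.5 TPM in the DG (transcript abundance corrected for gene length and for the total of the library) and 2.03 to 2.93 TPM in the BLA, and the principal neuron marker ETV1 at 76.9 to 143 TPM in the BLA and 8.52 to 12.1 TPM in the DG. The granule cell markers C1ql2, Trpc6 and Dsp were also higher in every used DG library than in any used BLA library. Calb1 of that list overlapped, with 97.0 to 160 TPM in the BLA and 80.8 to 127 TPM in the DG. The other BLA principal neuron markers did not mark the BLA. Rspo2 was at 9.04 to 14.8 TPM in the BLA and 12.5 to 23.9 TPM in the DG. Slc17a7 was at 817 to 1184 and 1575 to 1996 TPM, Neurod6 at 81.3 to 138 and 99.4 to 186 TPM, and Lmo3 at 151 to 210 and 100 to 167 TPM. Per the study's methods, rats were pair-housed and run in cohorts, and cage mates were stressed side by side. Nothing in the labels ties the libraries of a group to separate litters, cages or cohorts. The p-values thus measure the spread between these animals, taken as independent.

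Promoters are shown for the 5 genes on which the results below turn: Cartpt, the granins Vgf and Scg2, and Tac1 and Grp. The sequences are from RefSeq on the rat assembly GRCr8, run from 250 bases before the annotated transcription start to the base before it, and are written 5′ to 3′ on the gene's strand. Capitals mark the cAMP response element (CRE, TGACGTCA) or, where no full element was found, its core TGACG on either strand. The CRE is the element bound by CREB, a factor activated by cAMP and calcium signals. The windows lie at chr2:32991236-32991485 on the minus strand for Cartpt, chr12:25277021-25277270 on the minus strand for Vgf, chr9:88256867-88257116 on the minus strand for Scg2, chr4:36645333-36645582 on the plus strand for Tac1 and chr18:61658405-61658654 on the plus strand for Grp.
Cartpt: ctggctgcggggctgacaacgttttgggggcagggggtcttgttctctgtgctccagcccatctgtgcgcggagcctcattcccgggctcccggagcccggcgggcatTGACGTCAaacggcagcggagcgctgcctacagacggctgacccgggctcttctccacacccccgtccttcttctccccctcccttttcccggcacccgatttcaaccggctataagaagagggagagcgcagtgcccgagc
Vgf: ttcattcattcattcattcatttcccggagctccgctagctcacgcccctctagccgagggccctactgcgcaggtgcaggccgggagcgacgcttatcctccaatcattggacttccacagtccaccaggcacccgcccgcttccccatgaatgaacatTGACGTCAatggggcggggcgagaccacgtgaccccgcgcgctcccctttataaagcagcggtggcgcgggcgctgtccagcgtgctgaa
Scg2: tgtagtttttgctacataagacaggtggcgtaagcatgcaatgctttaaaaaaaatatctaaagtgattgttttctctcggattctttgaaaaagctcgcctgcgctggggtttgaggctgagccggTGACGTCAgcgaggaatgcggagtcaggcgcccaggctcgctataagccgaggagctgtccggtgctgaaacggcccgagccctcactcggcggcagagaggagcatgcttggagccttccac
Tac1: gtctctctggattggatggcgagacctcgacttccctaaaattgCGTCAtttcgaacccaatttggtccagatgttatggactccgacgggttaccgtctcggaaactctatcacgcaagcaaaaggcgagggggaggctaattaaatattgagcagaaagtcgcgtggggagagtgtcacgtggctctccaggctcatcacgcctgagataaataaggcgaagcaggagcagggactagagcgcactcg
Grp: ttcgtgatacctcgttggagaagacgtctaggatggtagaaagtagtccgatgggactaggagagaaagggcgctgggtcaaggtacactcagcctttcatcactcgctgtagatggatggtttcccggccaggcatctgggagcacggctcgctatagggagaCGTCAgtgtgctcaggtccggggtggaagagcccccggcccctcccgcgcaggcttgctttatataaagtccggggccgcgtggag

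The search covered 300 bases, from 250 before to 50 after the start, on both strands, and 9 of the 10 genes matched an entry, all but Cck. Cartpt, Vgf and Scg2 each held 1 full CRE, at bases -142 to -135, -90 to -83 and -123 to -116 from the start. A full CRE was thus found in 3 of 9 promoters, against 1.91% of the 27457 promoters in the table. The core TGACG was found in 7 of 9, against 22.0% of all promoters, and every full CRE holds the core on both strands. In Tac1 it lay at -206 to -202 and in Grp at -86 to -82. The AP-1 motif TGANTCA was found in 1 of 9 (Nts), against 7.33% of all promoters. The glucocorticoid response element was found in 0 of 9, against 0.00728% of all promoters. These matches describe letters in the reference, and binding was not measured.

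Levels differed widely between the precursors. Within the DG libraries used, the granin Scg2 was the most abundant with a mean of 473 TPM (413 to 526), followed by Npy with 306 TPM (230 to 408), Cck with 166 TPM (104 to 219) and Vgf with 62.0 TPM (54.2 to 69.9). Each of these ranges lay clear of its neighbour. Adcyap1 came next with 15.5 TPM (7.94 to 21.3), and Cartpt with 7.33 TPM (1.47 to 17.1), Grp with 5.93 TPM (1.02 to 15.5) and Gal with 3.75 TPM (1.62 to 5.59) overlapped with it or with one another. Tac1 was lower, with a mean of 1.08 TPM (0.560 to 1.57). Nts was listed at 0 in 11 of 12 DG libraries and at 0.0800 TPM, a single count, in the other.

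In the BLA the order was another one. Cck led with a mean of 555 TPM (481 to 708), ahead of Scg2 with 257 TPM (207 to 320) and Vgf with 130 TPM (98.0 to 173), with no overlap between neighbours. Adcyap1 at 19.3 TPM (12.4 to 28.7), Grp at 16.8 TPM (6.88 to 25.6), Npy at 13.9 TPM (5.27 to 27.6), Tac1 at 9.13 TPM (6.44 to 13.0) and Nts at 8.12 TPM (3.39 to 18.7) had ranges that overlapped with their neighbours. Cartpt was near the bottom with 2.58 TPM (0.730 to 5.49), and Gal was lowest with 0.818 TPM (0.380 to 1.47). The tables of the regions were made separately with different fragment length settings (the length exceeded the effective length by 50 bases in the BLA and by 261 to 274 in the DG), so no level was tested between regions.

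With the used libraries of all groups pooled, Cartpt varied most among these genes in both regions, apart from Nts in the DG. Its coefficient of variation over the used libraries was 75% in the DG and 57.5% in the BLA. Grp followed in the DG with 66.7%, and Npy and Nts in the BLA with 51.4% and 50.1%. The granins were the steadiest in the DG, with 7.37% for Scg2 and 8.62% for Vgf. The pooled DG value of Cartpt takes in the stress-high libraries by which it was chosen, so its rank there is not a result. Within DG controls, stress-low and stress-high, Cartpt had 41.9%, 60.7% and 9.68%, and Grp 39.2%, 81.0% and 56.8%. The BLA value of Cartpt rested on 6 to 49 counts a library.

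In the DG, Cartpt was highest in every stress-high animal. The 3 stress-high libraries had 14.3, 14.7 and 17.1 TPM, on 90 to 122 counts. The 3 stress-low libraries had 1.47, 2.80 and 5.28 TPM, on 8 to 31 counts. The 5 controls used had 2.68, 4.14, 4.76, 5.04 and 8.37 TPM, and the control left out had 4.33 TPM. No stress-high library overlapped with any other library, while stress-low and control libraries overlapped with each other. Group means were 15.4 ± 1.49 TPM (SD, n = 3) in stress-high, 3.18 ± 1.93 TPM (SD, n = 3) in stress-low and 5.0 ± 2.09 TPM (SD, n = 5) in controls. The fitted log2 fold change was 2.25 (SE 0.39) for stress-high over stress-low, a 4.76-fold difference, 1.65 (SE 0.31) for stress-high over control and -0.61 (SE 0.39) for stress-low over control. The last rested on few counts and on the highest stress-low animal: without animal 22 it was -1.25, and the difference between the stress groups 2.89. In bulk tissue, fewer cells of a type and less RNA per cell cannot be told apart. Summed marker levels in the DG overlapped between the stress groups for granule cells (511 to 634 TPM in stress-high, 481 to 568 in stress-low), mossy cells (18.9 to 21.7 and 18.2 to 21.4) and GABA interneurons (591 to 777 and 588 to 674), and the striatum and central amygdala list was at 114 to 121 and 108 to 120 TPM. In DG controls, Calb2 made up 10.1 of the mean 20.2 TPM of the mossy cell sum, which was higher in the BLA at 162 to 260 TPM. Ppp1r1b made up 108 of 126 TPM of the striatum and central amygdala sum. Neither sum is read as a measure of those cells in the DG. No gene of these lists was at 0 in every DG library, and the part of cell composition in the Cartpt levels was not tested.

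**Figure D1:**
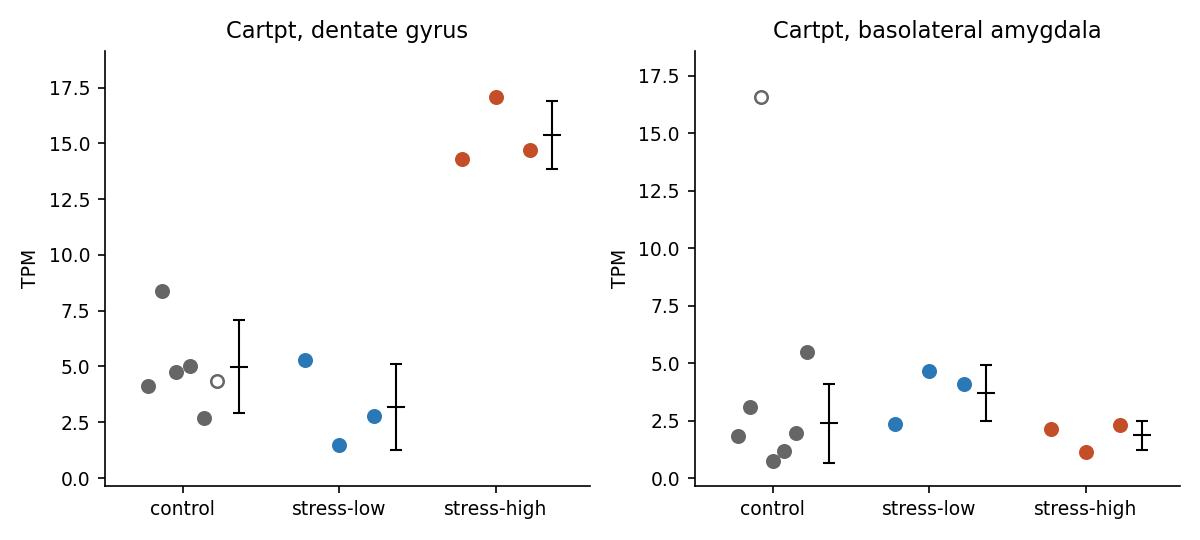
Cartpt level (TPM, vertical axis) in each library of the DG and the BLA by group, where filled points are libraries used in the fits, open points the control library left out, and bars the mean ± SD of the used libraries. In the DG the stress-high libraries lie at 14.3 to 17.1 TPM, above every other library, and in the BLA at 1.14 to 2.29 TPM, below every stress-low library.

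In the BLA the stress groups separated the other way. The stress-high libraries had 1.14, 2.13 and 2.29 TPM of Cartpt, on 9 to 29 counts. The stress-low libraries had 2.35, 4.11 and 4.64 TPM, on 16 to 49 counts, so the counts themselves overlapped. Controls used had 0.730, 1.16, 1.84, 1.94, 3.11 and 5.49 TPM. The stress groups did not overlap, although the gap between 2.29 and 2.35 TPM was small, and controls spanned both. Group means were 1.85 ± 0.623 TPM (SD, n = 3) in stress-high, 3.70 ± 1.2 TPM (SD, n = 3) in stress-low and 2.38 ± 1.73 TPM (SD, n = 6) in controls. The log2 fold change of stress-high over stress-low was -0.92 (SE 0.57, edgeR quasi-likelihood test, unadjusted p = 0.129, adjusted p = 1.0 over 15230 genes), so the difference did not pass the test. The exact two-sided permutation p was 0.10, the smallest that 3 against 3 libraries can give.

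The BLA values of Cartpt against controls did not pass either, at 0.63 (SE 0.48) for stress-low and -0.29 (SE 0.52) for stress-high, both with an edgeR adjusted p of 1.0. They turned on single controls. Animal 2, the control left out, had 16.6 TPM, and with it the value for stress-low over control was -0.20. Without control animal 35, the highest of the rest, the value for stress-high over control was 0.15, and that for stress-low 1.07 (edgeR unadjusted p = 0.0201). Both of these controls also had more RNA of striatal and central amygdala marker genes than most libraries. The summed level of 5 such markers (Ppp1r1b, Rgs9, Drd1, Adora2a and Prkcd) was 368 TPM in animal 2, 205 TPM in animal 35 and 189 TPM in stress-low animal 30, and 78.9 to 111 TPM in the other 10 libraries. All 5 genes were detected, and the sum ranged from 78.9 to 205 TPM in used controls, 102 to 189 in stress-low and 94.7 to 111 in stress-high.

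Cartpt and this marker sum had a Pearson r of 0.71 over the 12 BLA libraries used (permutation p = 0.00770, adjusted p = 0.231 over 30 relations of 15 marker lists in 2 regions). Spearman's rho was 0.573 (permutation p = 0.0557), r was 0.581 without the 2 libraries farthest from the median Cartpt level, and 0.680 on deviations from the group means. The granule cell list had an r of -0.677 (permutation p = 0.0156, adjusted p = 0.234, rho -0.524, permutation p = 0.0842), with -0.487 without the 2 farthest and -0.667 on deviations from group means. In the BLA this sum was mostly 1 gene, Calb1, with a control mean of 139 TPM where the sum had 150 TPM. Prox1 was at 2.58 TPM there, so the sum is not read as a measure of granule cells in the BLA. Neither relation passed after adjustment, and the part of these markers in the BLA Cartpt levels was not tested.

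Across the other members, no gene passed the adjusted threshold of 0.05 in any group comparison. In the BLA, 9 of the 10 genes had enough counts to be tested (all but Gal). By edgeR, 0 of 9 had an adjusted p under 0.05 for stress-high over control, stress-high over stress-low or stress-low over control, where the share over all tested genes was also 0%. DESeq2 gave 0 of 9 as well, and limma, which kept Gal too, gave 0 of 10. The share over all genes is given for edgeR alone. At an unadjusted p under 0.05, 2 of 9 were called for stress-high over control (Tac1 and Grp) against 2.57% of all genes, 0 of 9 for stress-high over stress-low against 1.98%, and 1 of 9 for stress-low over control (Tac1) against 2.75%. The groups of stress-high and stress-low did not overlap for 1 of 9 genes (Cartpt), against 5.89% of all genes. Median log2 fold changes of the 9 were 0.13, 0.01 and 0.03, where the median over all genes was 0.00 in each comparison.

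In the DG, 9 of the 10 genes had enough counts (all but Nts), and 8 were tested besides Cartpt. Here too edgeR and DESeq2 gave 0 of 8 with an adjusted p under 0.05 in each comparison, against 0% of all genes by edgeR. By limma, which without a filter kept Nts too, none passed either. At an unadjusted p under 0.05, 1 of 8 was called for stress-high over control against 2.19% of all genes, 1 of 8 for stress-high over stress-low against 3.12%, and 0 of 8 for stress-low over control against 6.90%. The gene was Grp in both. Stress-high and stress-low did not overlap for 2 of 9 genes, Cartpt (whose pattern chose it) and Grp, against 8.69% of all genes. Median log2 fold changes of the 8 were -0.05, -0.02 and 0.00, against 0.00 for all genes.

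**Figure D2:**
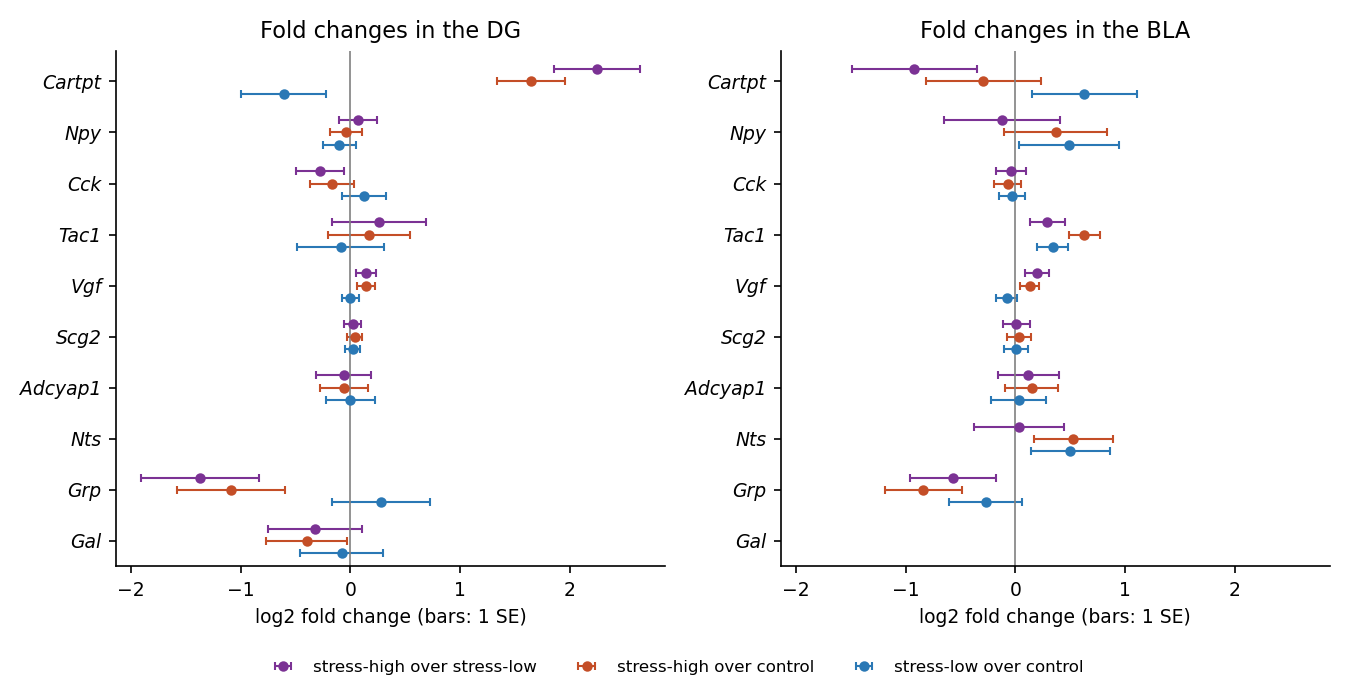
Log2 fold change of each gene (points, with bars of 1 standard error) in the DG and the BLA for stress-high over control, stress-high over stress-low and stress-low over control. Cartpt stands at 2.25 in the DG and -0.92 in the BLA for stress-high over stress-low, Tac1 at 0.63 in the BLA for stress-high over control, and Grp below 0 in both regions wherever stress-high is compared.

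Tac1, the tachykinin precursor, had the smallest p of the members in the BLA. The stress-high libraries had 10.4, 11.7 and 13.0 TPM and the stress-low libraries 8.47, 9.09 and 12.0 TPM. The 6 controls used ranged from 6.44 to 9.19 TPM with a median of 7.46, and the control left out had 5.78 TPM. Every stress-high library lay above every control, and the stress-low libraries overlapped with both. The log2 fold change of stress-high over control was 0.63 (SE 0.14), a 1.55-fold difference with an unadjusted edgeR p of 0.000406 that did not survive adjustment over all genes (adjusted p = 1.0). The exact two-sided permutation p on TPM was 0.0119, the smallest that 6 against 3 libraries can give. Leaving out each library in turn gave 0.55 to 0.69, with unadjusted p from 0.000247 to 0.00415.

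For stress-low over control the Tac1 value was 0.34 (SE 0.14, edgeR unadjusted p = 0.0295, adjusted p = 1.0), and it was past an unadjusted 0.05 no longer without control animal 32 or stress-low animal 30. Stress-high over stress-low gave 0.29 (SE 0.16, edgeR unadjusted p = 0.0879, adjusted p = 1.0), and 0.41 (unadjusted p = 0.0374) without stress-low animal 30. Several marker lists had higher means in BLA libraries of stressed animals than in controls. The summed CA3 markers were at 41.9 to 49.3 TPM in controls, 48.1 to 64.2 in stress-low and 45.6 to 56.8 in stress-high, and the thalamus markers at 18.4 to 32.8, 22.5 to 41.7 and 25.2 to 36.4 TPM. Oligodendrocyte markers were at 2124 to 2930, 2492 to 3907 and 2573 to 3007 TPM, GABA interneuron markers at 787 to 990, 748 to 1051 and 817 to 1022 TPM, and choroid plexus markers at 0.570 to 0.930, 0.250 to 1.31 and 0.800 to 1.40 TPM. The choroid plexus sums are near the floor, and its marker Ttr was at 0 in every BLA library used. Of single markers, Gad2 was at 0.41 (SE 0.17, edgeR unadjusted p = 0.0319) for stress-high over control. Over the BLA libraries used, Tac1 had an r of 0.813 with the CA3 sum, 0.689 with the oligodendrocyte sum and 0.674 with the thalamus sum. With the other lists it lay between -0.494 and 0.645. The CA3 sum was mostly 1 gene, Bok, at 38.0 of 45.3 TPM in controls. These r carry no test, and the part of the markers in the Tac1 values was not tested. In the DG, Tac1 lay between 0.560 and 1.57 TPM and no comparison passed an unadjusted 0.05.

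Grp, the precursor of gastrin-releasing peptide, was lowest in stress-high animals in the DG. Stress-high libraries had 1.02, 3.86 and 4.0 TPM and stress-low libraries 4.07, 4.46 and 15.5 TPM. Controls used had 4.43, 4.80, 5.18, 7.44 and 10.5 TPM. All stress-high libraries lay below all others, but the gap was small (4.0 against 4.07 TPM), and 1 stress-low animal at 15.5 TPM stood far above the rest of its group. Group means were 2.96 ± 1.68 TPM (SD, n = 3), 8.01 ± 6.49 TPM (SD, n = 3) and 6.47 ± 2.53 TPM (SD, n = 5).

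The log2 fold change of Grp in the DG was -1.37 (SE 0.54, edgeR unadjusted p = 0.0239, adjusted p = 1.0) for stress-high over stress-low and -1.09 (SE 0.49, unadjusted p = 0.0440, adjusted p = 1.0) for stress-high over control. Exact two-sided permutation over libraries gave 0.10 and 0.0179, each the smallest possible. The value against stress-low depended on single animals: it ranged from -1.69 to -0.51 when libraries were left out in turn, and passed an unadjusted 0.05 no longer without stress-high animal 7 or stress-low animal 34. The value against controls ranged from -1.34 to -0.72 and was lost without stress-high animal 7 or control animals 28 or 32, and with DESeq2. With limma without a filter on low values both calls were lost. Animal 7 also had the lowest DG levels of Cck (104 TPM), Npy (230 TPM) and Adcyap1 (7.94 TPM).

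In the BLA, Grp had a like direction in stress-high animals, with overlapping groups. Stress-high libraries had 6.88, 10.6 and 14.7 TPM, stress-low libraries 9.08, 15.3 and 25.6 TPM, and the 6 controls used 9.46 to 24.7 TPM with a median of 21.6. The log2 fold change of stress-high over control was -0.84 (SE 0.35, edgeR unadjusted p = 0.0294, adjusted p = 1.0). It ranged from -1.24 to -0.62 as libraries were left out, and was past 0.05 no longer without control animal 32 or stress-high animals 19 or 20, with all mapped libraries, or with the replicate block. Over the BLA libraries used, Grp had an r of -0.764 with the summed CA3 markers and of -0.628 with the oligodendrocyte markers. With the other lists it lay between -0.459 and 0.425. These r carry no test, and the part of the markers in the Grp values was not tested.

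Npy, which in the hippocampus is made by inhibitory interneurons and in the amygdala is known for opposing anxiety, gave different precision in each region. In the DG it was counted 627.0 times or more in every library used, and group means were 315 ± 36.8 TPM (SD, n = 5) in controls and 295 ± 18.6 TPM (SD, n = 3) in stress-low, with stress-high libraries at 230, 271 and 408 TPM. In the BLA the controls used ranged from 5.27 to 27.6 TPM with a median of 6.94, stress-low libraries had 10.1, 18.4 and 22.2 TPM, and stress-high libraries had 10.7, 16.3 and 18.9 TPM. The groups overlapped in both regions and no comparison passed an unadjusted 0.05. The BLA values against controls were 0.37 (SE 0.47) for stress-high and 0.49 (SE 0.46) for stress-low. Without control animal 35, at 27.6 TPM, they were 0.82 (edgeR unadjusted p = 0.0478) and 0.93 (edgeR unadjusted p = 0.0265). With the replicate block both also had an unadjusted p under 0.05. That block takes animal 35 out of the BLA comparisons too, so it is not a separate check. In the DG, stress-high over control was -0.04 (SE 0.15), and -0.33 (edgeR unadjusted p = 0.0112) without stress-high animal 19, at 408 TPM. The BLA expected counts of Npy were whole multiples of 7.04 (within 0.01) in all 13 libraries, between 4 and 18 of them, so a level there rested on few independent steps. Of 15713 genes with a count in every BLA library, 9 had counts in such steps of more than 1.5, and Npy was the single member among them.

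**Figure D3:**
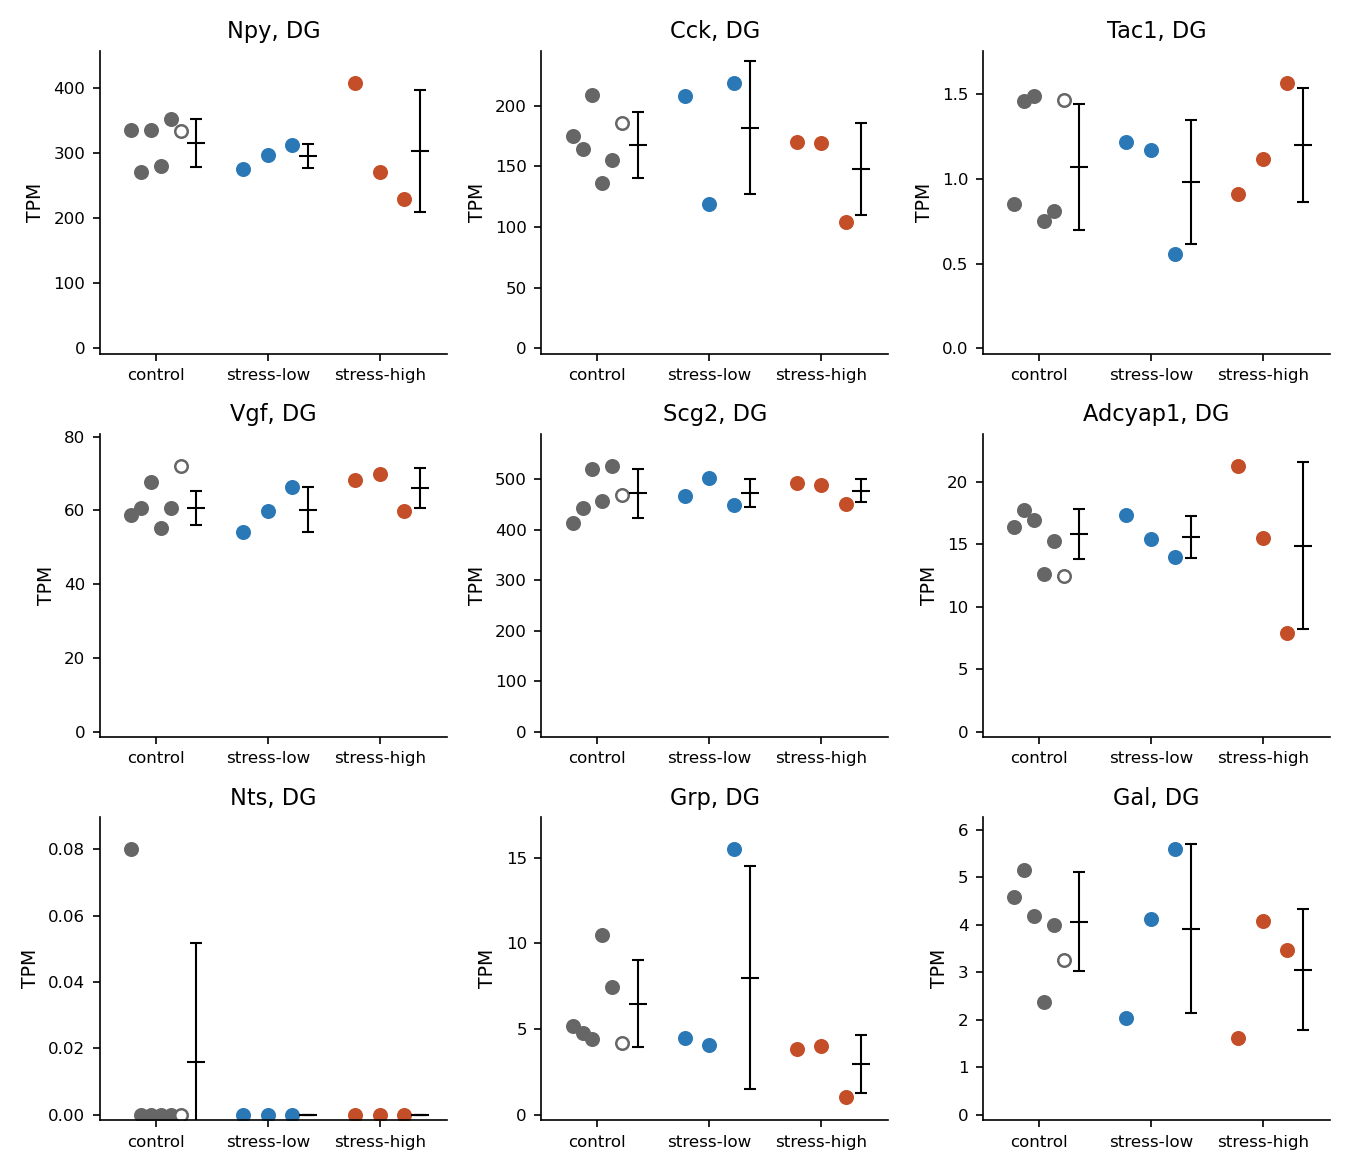
Level (TPM, vertical axis of each panel) of the other 9 precursor genes in each DG library by group, with filled points for used libraries, an open point for the control left out and bars for mean ± SD of the used libraries. Grp lies at 1.02 to 4.0 TPM in stress-high, below all other libraries, while the groups of the other detected genes overlap.

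Cck, which marks a class of inhibitory interneurons and many excitatory cells of the amygdala, overlapped between all groups. Its DG levels were 136 to 209 TPM in used controls, 119, 208 and 219 TPM in stress-low and 104, 169 and 170 TPM in stress-high. Its BLA levels were 511 to 708, 481 to 615 and 519 to 551 TPM. Adcyap1, the PACAP precursor linked to stress responses in the amygdala, likewise overlapped, with BLA means of 18.6 ± 6.51 TPM (SD, n = 6) in controls, 19.3 ± 4.09 (SD, n = 3) in stress-low and 20.5 ± 6.23 (SD, n = 3) in stress-high. Neither passed an unadjusted 0.05 in any group comparison of either region. Without stress-low animal 33, at 119 TPM, Cck in the DG was at -0.52 for stress-high over stress-low (edgeR unadjusted p = 0.0191).

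Nts and Gal were each measurable in 1 region. Nts in the BLA was at 8.51, 9.80 and 10.4 TPM in stress-high, 3.39, 6.73 and 18.7 TPM in stress-low and 4.18 to 10.3 TPM in used controls, and the control left out had 25.9 TPM. Stress-low animal 30, high in the striatal and central amygdala markers, held the 18.7 TPM, and the part of those markers in Nts was not tested. Without it the Nts value of stress-high over stress-low was 0.89 (edgeR unadjusted p = 0.0161). Gal in the DG was at 2.37 to 5.16 TPM in used controls, 2.04, 4.13 and 5.59 TPM in stress-low and 1.62, 3.47 and 4.08 TPM in stress-high. In all of these the groups overlapped. In the BLA, Gal had 3 to 9 counts a library used and was not tested in the main fits. By limma, or edgeR without a count filter, its lowest unadjusted p in the BLA was 0.131.

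The granins are cargo of the same dense-core granules as the peptides. Scg2 in the DG was at 451, 488 and 492 TPM in stress-high, 449, 466 and 503 TPM in stress-low and 413 to 526 TPM in used controls. Vgf in the DG was at 59.9, 68.4 and 69.9 TPM in stress-high, 54.2, 59.9 and 66.5 TPM in stress-low and 55.2 to 67.7 TPM in controls, with the control left out at 72.1 TPM. For Scg2 the standard error of a DG fold change was 0.07 or 0.08 on the log2 scale, and for Vgf 0.08 or 0.09, against 0.31 to 0.39 for Cartpt. Both granins overlapped between groups in the DG and in the BLA, where Scg2 ranged from 207 to 320 TPM and Vgf from 98.0 to 173 TPM. Without single libraries Vgf had an unadjusted edgeR p as low as 0.0280 for stress-high over control and 0.0377 for stress-high over stress-low in the DG, and 0.0290 for stress-high over stress-low in the BLA, all at log2 fold changes of at most 0.28.

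**Figure D4:**
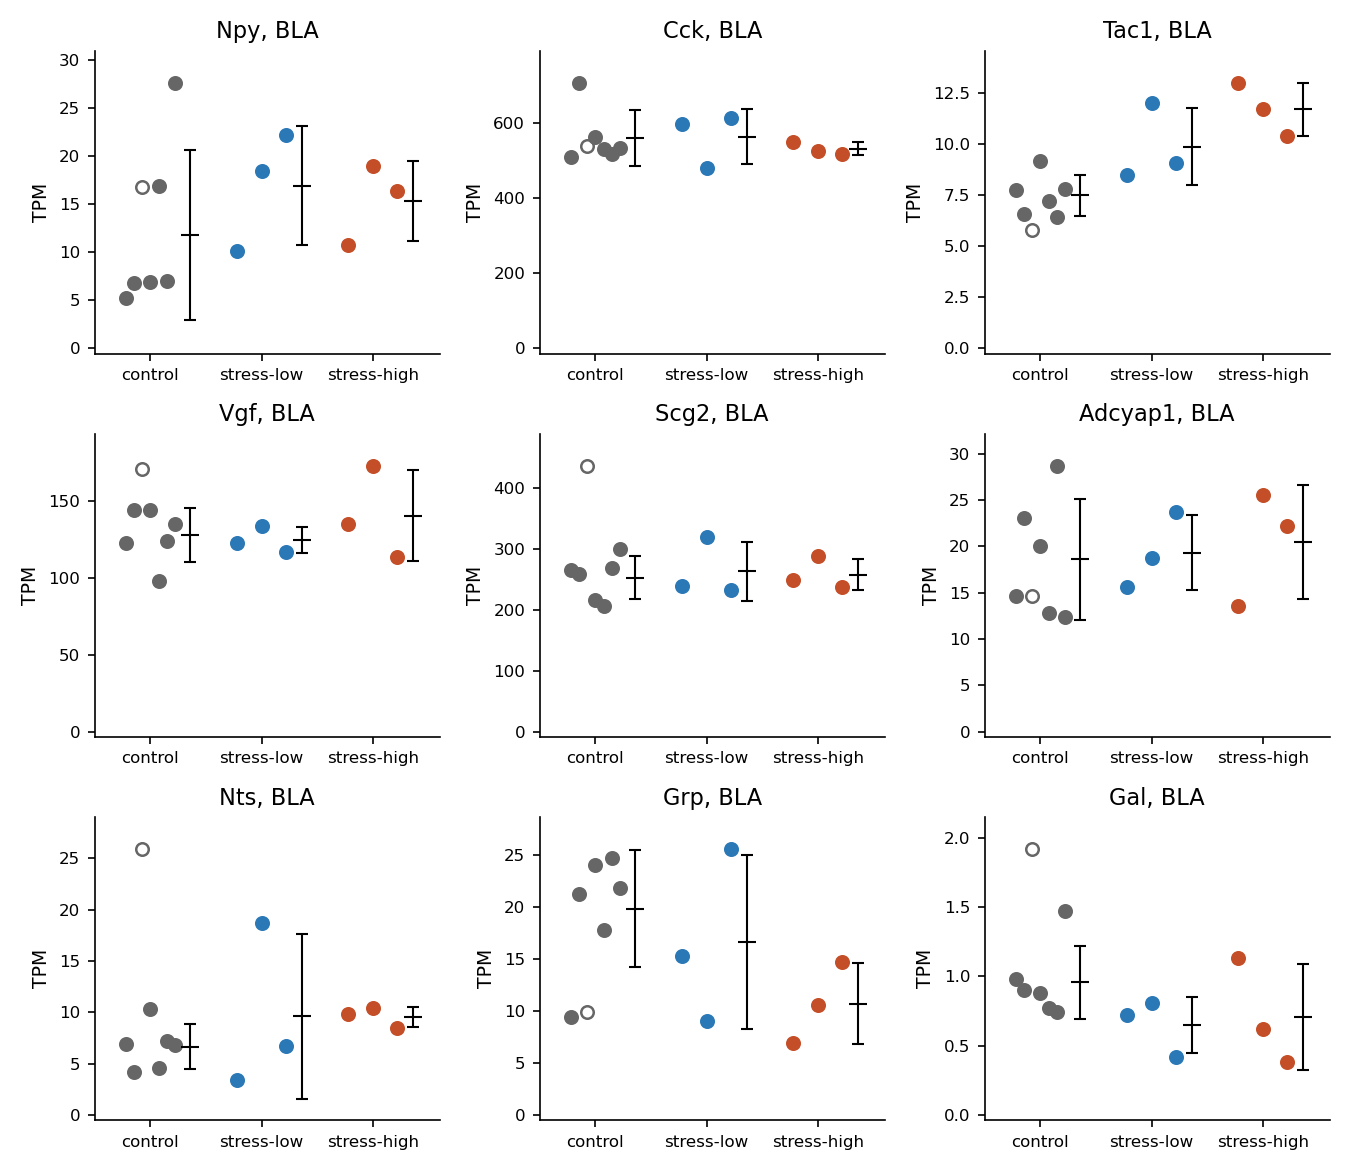
Level (TPM, vertical axis of each panel) of the other 9 precursor genes in each BLA library by group, with filled points for used libraries, an open point for the control left out and bars for mean ± SD of the used libraries. Tac1 lies at 10.4 to 13.0 TPM in stress-high, above the used controls at 6.44 to 9.19 TPM, and the control left out is highest in Scg2 (437 TPM) and Nts (25.9 TPM).

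The change between the stress groups was compared between regions in 1 fit over the 13865 genes kept in both, which did not account for the animal. For Cartpt the DG change exceeded the BLA change by 3.19 (SE 0.72) on the log2 scale, given with no test as the DG pattern chose the gene, and by 2.68 with the animal as a block. Of the 7 other members kept, 0 had an adjusted p under 0.05 by edgeR (0% of all genes) and 0 an unadjusted p under 0.05, against 1.85% of all genes. DESeq2 and the fit with the animal as a block also gave 0 of 7 by either threshold. For Grp the difference was -0.76 (SE 0.72, edgeR unadjusted p = 0.304, adjusted p = 1.0). Tac1 and Scg2 differed by -0.03 (SE 0.45) and 0.02 (SE 0.16).

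Whether other peptides follow Cartpt was first asked over the 12 BLA libraries used. Scg2 came closest. On log2(TPM + 1) its r with Cartpt was 0.561 (permutation p = 0.0590, rho 0.392, permutation p = 0.209), and 4.40% of the 14420 genes compared had an r at least as far from 0. On deviations from the group means r was 0.600. Without the 2 libraries farthest from the median Cartpt level r was 0.306, a cut that also narrows the range of Cartpt. The relation had a permutation p under 0.05 without stress-high animal 20 (r 0.735) or stress-low animal 34 (r 0.693). Npy had an r of 0.470 (permutation p = 0.123, rho 0.420, permutation p = 0.177), which was 0.457 on deviations from group means and 0.152 without the 2 farthest, and 10.2% of genes were as far from 0. Without stress-high animal 20 it was 0.609, past an unadjusted 0.05. The other 7 genes lay between -0.115 and 0.183. Of the 9 relations in the BLA, 0 had a permutation p under 0.05.

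In an edgeR fit with the Cartpt level as a covariate, Scg2 had a slope of 0.20 (SE 0.06), the log2 change of Scg2 for each unit of log2(TPM + 1) of Cartpt, with an unadjusted p of 0.00294 and an adjusted p of 0.712. With the 3 group means in the fit the slope was 0.26 (SE 0.06, edgeR unadjusted p = 0.000687, adjusted p = 0.607). As single libraries were left out, Scg2 kept an unadjusted edgeR p under 0.05 each time and never passed after adjustment. The slope of Npy was 0.59 (SE 0.29, unadjusted p = 0.0552, adjusted p = 0.878). Of the 8 members tested, 0 had an adjusted p under 0.05, against 0.00657% of all genes, and 1 (Scg2) an unadjusted p under 0.05, against 5.68%. With the left-out control included, whose Cartpt (16.6 TPM), Scg2 (437 TPM) and striatal and central amygdala markers (368 TPM) were each the highest of the 13, Scg2 had an r of 0.819 (permutation p = 0.00223) and passed the adjusted threshold in the covariate fit. The marker sum is plotted beside Scg2 and Npy, and its part in these relations was not tested.

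**Figure D5:**
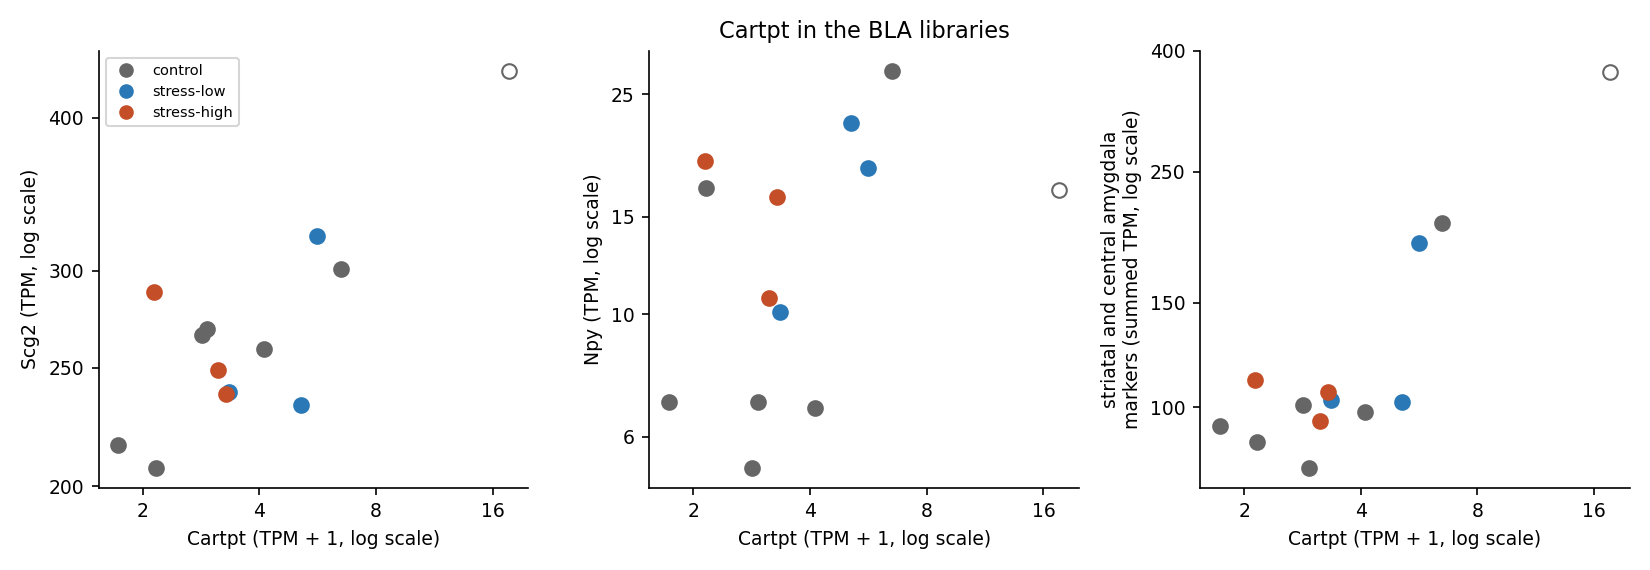
Level of Scg2, of Npy and of the summed striatal and central amygdala markers (TPM, vertical log axes) against Cartpt TPM + 1 (horizontal log axis) in each BLA library, coloured by group, with an open point for the control left out. The libraries with the most Cartpt, the control left out at 16.6 TPM and control animal 35 at 5.49 TPM, also have the highest marker sums, 368 and 205 TPM.

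In the DG the 3 stress-high libraries formed a cluster of their own in Cartpt, so no r pooled over the groups is given. Over the 8 control and stress-low libraries used, a set chosen after seeing the data, 0 of 9 relations had a permutation p under 0.05. Npy had an r of -0.447 (permutation p = 0.268, rho -0.690, permutation p = 0.0694, all exact) and Scg2 an r of -0.427 (exact permutation p = 0.292), the opposite sign to the BLA. Tac1 had 0.408 (exact permutation p = 0.315), Adcyap1 0.378 and Cck 0.355. Grp, whose stress-high levels were low where those of Cartpt were high, had an r of -0.149 (exact permutation p = 0.713).

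A covariate fit over all 11 DG libraries takes in the stress-high cluster by which Cartpt was chosen, so it is not separate from the contrast of stress-high with the rest, and its slope for Grp, -0.57 (SE 0.23), is given with no test. With the group means in the fit the slope of Grp was -0.16 (SE 0.52, edgeR unadjusted p = 0.763, adjusted p = 0.947), so within groups no relation of Grp and Cartpt was detectable with these libraries. Of the 8 members tested in the DG, 0 had an adjusted p under 0.05, against 0% of all genes, and 1 (Grp) an unadjusted p under 0.05, against 3.64%, from which nothing is read for the same reason. Both granins had DG slopes close to 0, at -0.01 (SE 0.03) for Scg2 and 0.05 (SE 0.04) for Vgf.

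The genes whose levels ran most closely with Cartpt in the BLA were none of the members. By Pearson r on log2(TPM + 1) over 12 libraries they were Hvcn1, a voltage-gated proton channel, with 0.924, RPL37, a ribosomal protein, with 0.878, Snrpd2l with 0.865, Crabp1, a retinoic acid binding protein, with 0.856, and Dlx6, a transcription factor of forebrain GABA neurons, with 0.847. On deviations from the group means they kept 0.918, 0.885, 0.825, 0.848 and 0.808. In the DG, the 5 genes ranked first by r over all 11 libraries, the stress-high cluster included, were Atf7, Mfsd7, Iqgap2, Slc12a4 and Ecm1. Over the 8 control and stress-low libraries their r was 0.729, 0.954, 0.880, 0.488 and 0.502. These are the top of a list of 14420 and 13564 genes, were chosen by the same r, and carry no test.

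A used library in both regions was at hand for 9 animals, which allowed the level of a gene in the BLA to be set against that in the DG of the same animal. Vgf had the highest r, 0.650 (exact permutation p = 0.0539, rho 0.633, exact permutation p = 0.0760), but 0.173 without the 2 farthest animals. Grp had an r of 0.495 (exact permutation p = 0.176) and a rho of 0.700 (exact permutation p = 0.0433). Cartpt had an r of -0.306 (rho -0.183) and of 0.387 without the 2 farthest animals, given with no test as its DG levels chose it. None of the other 9 genes had an exact permutation p of r under 0.05 over the 9 animals.

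Genes that act with the precursors were taken from lists of receptors, processing enzymes and granule proteins. Of 16 tested BLA receptors and 15 DG receptors, none had an adjusted p under 0.05 in any comparison by edgeR. At an unadjusted 0.05, Sort1, a sorting receptor that binds neurotensin, was at 0.17 (SE 0.08) for stress-high over stress-low in the BLA (1 of 16, against 1.98% of all genes), and Vipr1, a receptor that binds VIP and PACAP, at -0.63 (SE 0.25) for stress-low over control in the DG (1 of 15, against 6.90%). None of the 8 processing genes (the convertases Pcsk1 and Pcsk2 and carboxypeptidase E among them) and none of the 9 granule genes (such as Chga and Chgb) passed an unadjusted 0.05 in either region. Medians of these lists lay between -0.11 and 0.08, against 0.00 for all genes.

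Among 27 other peptide precursors, 18 were tested in the BLA and 16 in the DG, again with no adjusted p under 0.05 by edgeR. At an unadjusted 0.05, 2 of 16 were called in the DG for stress-high over control against 2.19% of all genes, 2 of 16 for stress-high over stress-low against 3.12% and 3 of 16 for stress-low over control against 6.90%, and in the BLA 1 of 18 for stress-high over stress-low against 1.98%. The smallest p was that of Pdyn, the dynorphin precursor, which DG granule cells make. Its DG log2 fold change was -1.24 (SE 0.23, edgeR unadjusted p = 0.000101, adjusted p = 0.960) for stress-high over control, -0.72 (SE 0.25) for stress-high over stress-low and -0.52 (SE 0.22) for stress-low over control. Tac3, another tachykinin precursor, was at -0.55 (SE 0.14, edgeR unadjusted p = 0.00212, adjusted p = 0.718) for stress-low over control in the DG and at -0.30 (SE 0.14) for stress-high over control. Npff was at 0.96 (SE 0.37) for stress-high over stress-low and at -1.02 (SE 0.35) for stress-low over control in the DG. Igf2, a growth factor also made by the meninges, was at -0.54 (SE 0.21) between the stress groups of the BLA.

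Of 10 activity-regulated genes, which respond to neuronal firing, none passed the adjusted threshold by edgeR. An unadjusted p under 0.05 was found in the DG for 1 of 10, Nptx2 (0.28, SE 0.12), for stress-high over control, against 2.19% of all genes. For stress-low over control it was found in the DG for 3 of 10, Junb (-0.21, SE 0.09), Arc (-0.34, SE 0.15) and Homer1 (0.18, SE 0.08), against 6.90%, and in the BLA for 1 of 10, Nr4a1 (-0.37, SE 0.14), against 2.75%.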

How the data were processed

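Bulk poly-A RNA of the BLA and DG was measured in 25 libraries. Per the labels and the study's methods, the authors used STAR 2.6.0a with the Rn5 genome and an Ensembl annotation and then RSEM 1.3.1. They deposited, for each region, an expected count (the estimated reads of a gene, which need not be whole), a TPM value and the lengths per gene and library. For TPM and lengths the deposited values were used as given.

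Rounded expected counts were fitted with edgeR 4.0.16 in R 4.3.3. TMM scaling, filterByExpr (min.count 10) and the quasi-likelihood test with 3 group means per region were used. This left 15230 BLA genes and 14080 DG genes, over all of which p was adjusted by Benjamini and Hochberg at 0.05. The median total of a library was 16509609 expected counts for the BLA and 16074361 for the DG. Correlations used log2(TPM + 1) and permutation tests of 100000 resamples, or exact ones under 10 values, all two-sided (Python 3.11.15, scipy 1.17.1). PC1 came from genes whose mean TPM was 1 or more. The control farthest from the median on PC1 was left out of each region, since the study left out 1 control per region without numbering it.

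The BLA library of animal 35 is named a control while its treatment field reads stress-exposed, and it was taken as control. Replicate numbers in the titles did not pair samples, as deviations of same-numbered libraries had correlations of -0.173 to 0.0626 (BLA) and -0.364 to 0.0853 (DG). Libraries of the same animal in both regions had correlations of 0.0813 to 0.223 in 9 pairs. Pairs of different animals were not computed, so these values do not show pairing.

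The members and gene lists were chosen with earlier results of these data known. Every member is named, with fold changes for Cartpt and for members with an unadjusted p under 0.05 in the main fits. Other members are given by standard errors, the region difference or a slope, and Npy also by fold changes. Fold changes or p-values of members with no call are also given where leaving out a library brought an unadjusted p under 0.05 or turned the direction. These were picked from many such fits and are shown as limits. Of other genes, the 5 with the highest r to Cartpt per region were named, and list genes past an unadjusted 0.05. Marker genes were named to describe a list. One marker gene is not reported here and was left out of its list's sum. As alternatives, DESeq2 1.42.0 and limma 3.58.1 (on log2(TPM + 1), on log2(TPM + 0.1) and without a filter) were run, edgeR was rerun with RLE factors, without a count filter, on the compared groups alone, on all mapped libraries and with a replicate block, and each library was left out. The fits were tested on simulated data. Promoters came from RefSeq on GRCr8, another build than that of the files, and no coordinate was carried between builds.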

Additional observations from a re-analysis of the deposited data

Results flagged for a closer look

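Within groups of 4 to 10 libraries, 40 groups of a member's TPM values were examined for a highest or lowest library far from the rest, and 8 had one. Control groups were examined both with the used libraries and with all libraries, so these are not independent groups, and Cck and DG Nts each appear in both. Chance flags about 1 in 20 groups of separate values. In BLA controls, Cck was at 708 TPM in animal 17, where the others lay between 511 and 564, with or without animal 2. Gal was at 1.47 TPM in control animal 35, where the other used controls lay between 0.740 and 0.980. With all 7 BLA controls, animal 2, the library left out of the fits, stood apart in Cartpt (16.6 TPM, others 0.730 to 5.49), Scg2 (437 TPM, others 207 to 301) and Nts (25.9 TPM, others 4.18 to 10.3). In the same library the meninges markers summed to 79.1 TPM, where the used libraries had 11.1 to 20.7. The CA1 markers summed to 419 TPM there, of which Wfs1 alone was 349 TPM. In DG controls, Nts was at 0.0800 TPM in animal 14, a single count, and listed at 0 in the others.

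Cartpt was flagged because every stress-high library lay above every stress-low library in the DG (log2 fold change 2.25) and below every one in the BLA (-0.92). The difference between these was not tested, as the DG pattern chose the gene. In the BLA the gap was small, 2.29 against 2.35 TPM, on few counts. Of all genes, 8.69% had stress groups that did not overlap in the DG and 5.89% in the BLA.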

How the results depend on the processing

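Counts of members with an adjusted p under 0.05 stayed at 0 under every alternative run, apart from 1 (Scg2) that followed Cartpt in the BLA with all mapped libraries. Counts at an unadjusted p under 0.05 moved more. With all mapped libraries the count following Cartpt in the BLA was 2 and that for stress-high over control in the BLA was 1, and the same-animal relation had 1 gene (Vgf, r 0.649) instead of 0. With only the 2 groups compared, stress-high over stress-low in the BLA had 2 (Cartpt and Vgf). With the replicate block, stress-low over control in the BLA had 3 (Cartpt, Npy and Tac1), while stress-high over control kept a count of 2 but with Npy and Tac1. On deviations from group means, 0 followed Cartpt in the DG. Stress-high over control in the DG had 0 with DESeq2 and with limma without a filter, and stress-high over stress-low in the DG had 0 with limma without a filter. In the BLA the replicate block follows the title numbers, and control animal 35 is the only library with its number. That fit thus takes animal 35 out of the group comparisons, as leaving it out does. What else lay behind these shifts was not tested. Shares over all genes are not given for these settings, nor for the fits with single libraries dropped. The counts are thus not read as a result about the members.

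When single libraries were dropped, 1 to 2 members followed Cartpt in the BLA and 0 to 2 in the DG. The counts were then 1 to 3 for stress-high over control, 0 to 3 for stress-high over stress-low and 0 to 3 for stress-low over control in the BLA, and 0 to 2 for both stress-high comparisons in the DG. Fold changes of Cartpt in the BLA turned direction: stress-high over control was 0.14 with the replicate block and -0.57 to 0.15 as libraries were left out (0.15 without control animal 35), and stress-low over control was -0.20 with all mapped libraries. Of the other fold changes given for Cartpt, Tac1 and Grp, 101 under other settings and 84 with 1 library left out were unchanged. For tested values this means the same direction and the same side of an adjusted 0.05. Cartpt in the DG and its region difference were not tested, and there it means a move of less than the standard error. In 2 more, both DG Cartpt values without stress-low animal 22 (2.89 and -1.25), the move was larger and the direction was kept. Fold changes of members with no call also turned as single libraries were left out, such as Nts in the BLA (-0.36 to 0.88 for stress-low over control, -0.35 to 0.89 for stress-high over stress-low) and, in the DG, Grp for stress-low over control (-0.59 to 0.60), Npy for stress-high over control (-0.33 to 0.12) and Adcyap1 for stress-high over stress-low (-0.42 to 0.23). With 3 libraries in each stress group, and 8 to 31 Cartpt counts in DG stress-low, small changes could not be detected.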
